A study of Mus musculus and Homo sapiens with 4 samples.

Results

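The genes described here are 40 genes of mitosis, chosen by symbol from a list with earlier results of these data known. They were read in RNA sequencing of mouse embryonic fibroblasts (MEFs) labelled wild type and NEAT1 knockout. All 40 were found among the 23329 entries of the fibroblast tables, each on 1 entry and spread over 17 chromosomes. The wild-type MEFs (MEF WT) and the knockout MEFs (MEF NEAT1 KO) were grown from C57BL/6 E13.5 embryos and used at passages 2 to 3, in the same mixed medium with serum. Each genotype gave 1 library of poly-A RNA, and the sources used here give neither the knockout allele nor the number of embryos behind a culture. The other 2 libraries of the series come from VCaP prostate cancer cells with and without ERα overexpression. Values are RPKM, read counts scaled to the length of an entry and the mapped reads of a library, so levels of different genes can be set side by side. With 1 library per genotype no difference has a replicate check and no test was possible.

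Cells that divide build up a common set of transcripts in late interphase and use them to condense chromosomes, assemble the spindle, separate the chromatids and cut the cell apart. Cyclin B with Cdk1 opens mitosis, and the anaphase-promoting complex closes it by marking cyclin B and the separase inhibitor for destruction. The genes are switched on together by FoxM1, B-Myb and the MuvB complex, often through NF-Y boxes and a CHR element in the promoter, and are held down by p53, p21 and the DREAM complex in cells that leave the cycle. In fibroblast cultures their summed RNA is widely used as a reading of how many cells divide.

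The libraries differed in more than Neat1. Neat1 itself (chromosome 19, 5842302 to 5845478) was at 29.5 RPKM in wild type against 2.01 in KO, the direction of the labels. Xist was at 28.6 RPKM in wild type against 0.050 in KO, whereas the Y-linked Eif2s3y was listed at 0 in wild type and at 6.30 RPKM in KO, so the sex of the embryos and the genotype cannot be told apart. Higher in KO were 7033 of all 23329 entries, the count to set beside the marker counts that follow. Among the 11211 entries with a mean of at least 1 RPKM over both libraries it was 4391. Of the 12 fibroblast markers, 9 were higher and 3 lower in KO, and their median log2 ratio was 0.43. Their sums of 6828 and 6848 RPKM were close. The abundant Vim and Fn1 were lower, at 77.7% and 67.6% of wild type. Higher were Col1a1 (1477 RPKM in wild type against 1874 in KO), Col3a1 (223 against 442) and Col1a2 (605 against 753). Lum, Dcn and Pdgfra, at lower levels, stood at 414%, 323% and 330% of wild type. The 10 macrophage markers were all higher in KO, with a sum of 21.5 against 52.7 RPKM. Among them Lyz2 was at 13.9 against 34.7 RPKM, Cd68 at 2.79 against 7.26 and Emr1 at 0.482 against 1.37. Ptprc was at 0.0449 against 0.0813 RPKM. Of the epithelial, endothelial, skeletal muscle and neural markers, Cdh1 and Myf5 were listed at 0 in both libraries, and the sums were 1.12 against 0.684, 1.12 against 0.558, 18.9 against 7.46 and 67.4 against 47.8 RPKM. The muscle sum was carried by Acta1 (12.6 against 4.26 RPKM) and Des (6.28 against 3.20 RPKM). In the neural sum Nes was at 31.4 against 11.6 RPKM and Tubb3 at 35.9 against 36.1 RPKM. Nes and Acta1 stood at ranks 17 and 18 from the lowest log2 ratio of all entries. In KO each of 15 interferon-response genes had the higher level, at a median log2 ratio of 2.51, a value that shifts with the pseudocount. The part of these differences in the results below was not tested.

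All 40 mitosis genes had a lower RPKM in NEAT1 KO than in wild-type MEFs. Their levels ran from 1.08 RPKM (Ttk) to 29.0 RPKM (Ube2c) in wild type, with a median of 6.80 RPKM, and from 0.372 RPKM (Cenpf) to 16.0 RPKM (Ube2c) in KO, with a median of 2.72 RPKM. All 40 reached 1 RPKM in wild type and 34 did so in KO. Of all 23329 entries, 11233 reached it in wild type and 11118 in KO. The KO level was at a median of 44.9% of the wild-type level and ranged from 23.9% to 93.7%, and for 27 of the 40 genes it lay between 40% and 60%. Over the 11211 entries with a mean of at least 1 RPKM across both libraries the median was 95.4%, and 471 entries lay between 40% and 60%. The order of the genes was kept between libraries, with a Spearman rho of 0.96 across the 40 genes, which are not independent and share both libraries. Fewer dividing cells and less of these RNAs per cell cannot be told apart in RNA from a whole culture.

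**Figure D1:**
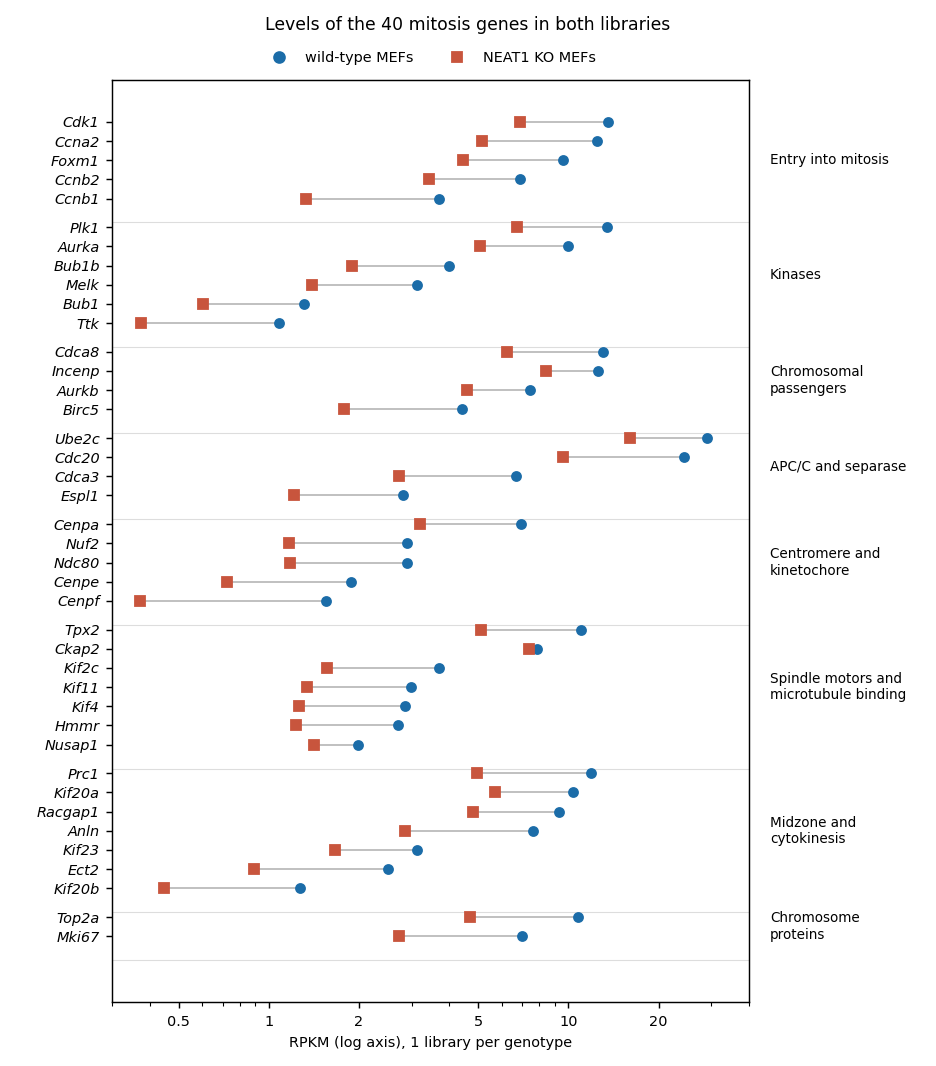
RPKM of the 40 mitosis genes on a log axis, with wild-type MEFs as blue circles and NEAT1 KO MEFs as red squares, 1 library each, and genes grouped by role. Every red square lies to the left of its blue circle, with the shortest line for Ckap2 and the longest for Cenpf.

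On the scale used for the log2 ratio, log2((KO + 1)/(wild type + 1)), which understates the change of genes at low levels, the 40 genes had a median of -0.84 and an SD over genes of 0.23. All 40 were below 0, against 43.2% of all entries and 60.8% of the entries with a mean of at least 1 RPKM. More than 1.5-fold lower in KO were 36 of the 40, against 2.54% of all entries and 4.77% of those with a mean of at least 1 RPKM. After centring on the median of expressed entries 33 did so, and after quantile normalization 32. Past 2-fold lower were 8 of the 40, against 0.334% and 0.651%, a count that depends on the added 1. With 0.1 added it was 28 of the 40, against 540 of all 23329 entries. By unadjusted RPKM 29 genes were under 50% of wild type, Cenpf with the lowest share among them. The same held for 274 of the 11211 entries with a mean of at least 1 RPKM. None was more than 1.5-fold higher, a threshold that 2.37% of all entries and 4.4% of those with a mean of at least 1 RPKM passed. The 8 genes past 2-fold were Cdc20, Anln, Ccna2, Prc1, Mki67, Top2a, Cdca3 and Ccnb1, of which the last 3 no longer passed after centring or quantile normalization. The 4 genes that did not reach 1.5-fold were Bub1, Incenp, Nusap1 and Ckap2. Ranked from the lowest log2 ratio of all entries, Cdc20 stood at 29 and Anln at 38, and the median rank of the 40 genes was 172 of 23329. Among the 73 entries with a mean of at least 1 RPKM that passed 2-fold lower, 8 were mitosis genes of this list, which is 20% of the list and 11.0% of those entries.

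The depth behind these values was estimated from the steps in which low RPKM values rise. Multiplied by transcript length, part of the low values lay on steps, whole or midway, whose size corresponds to about 31.4M reads or read pairs in wild type and 29.6M in KO. On that estimate the 40 genes rested on 97.6 to 2209 units each in wild type and on 31.8 to 891 in KO. The counting error of the log2 ratio of unadjusted RPKM was then between 0.059 and 0.29 (SE), with a median of 0.12. The approximate 95% interval from counting alone lay below no change for 39 of the 40 genes, all but Ckap2. No share over all entries was computed to set beside this count. Such intervals say nothing of the spread between cultures, and reads without molecular identifiers are not independent molecules.

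**Figure D2:**
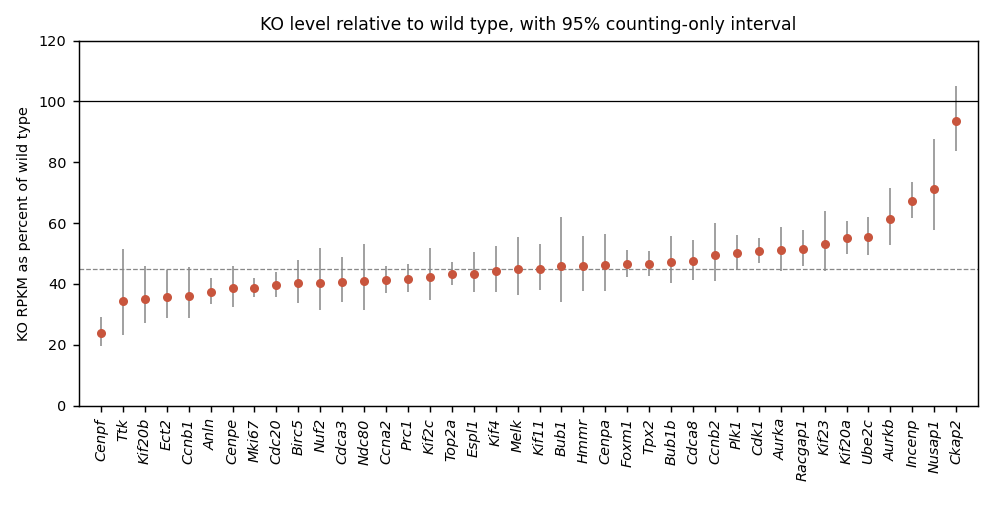
KO level of each of the 40 genes as a percent of its wild-type level, on a linear axis from 0, with bars for the approximate 95% interval from counting error alone. The solid line marks 100% and the dashed line the median of 44.9%, and only Ckap2 at 93.7% has an interval that reaches 100%.

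The promoters are shown because the regulators named above act through letters that can be read there. RefSeq promoters (GRCm38.p6) were matched for 34 of the 40 genes, and the 250 bases before each annotated start were searched on both strands for the NF-Y box (CCAAT, or ATTGG on the other strand) and for the CHR letters (TTTGAA, or TTCAAA on the other strand). By their letters these motifs can share at most 1 base. At least 1 NF-Y box was found in 26 of the 34 genes (76.5%), against 37.5% of 27025 genes with a promoter and 40.5% of the 7990 that had a mean of at least 1 RPKM in these MEFs. CHR letters were found in 12 (35.3%), against 18.3% and 12.1%, and both in 11 (32.4%), against 7.34% and 5.49%. In 6 genes both lay within 60 bases of the start, and these are printed. Each run holds the 120 bases before the start, 5′ to 3′ on the strand of the gene, with matches in capitals.

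Cdk1 (chr10:69352913-69353032, minus strand): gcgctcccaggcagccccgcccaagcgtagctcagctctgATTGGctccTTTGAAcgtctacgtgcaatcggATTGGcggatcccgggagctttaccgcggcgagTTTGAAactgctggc
Cdc20 (chr4:118437344-118437463, minus strand): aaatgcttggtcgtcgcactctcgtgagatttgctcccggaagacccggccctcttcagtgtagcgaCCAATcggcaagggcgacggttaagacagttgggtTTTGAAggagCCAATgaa
Ube2c (chr2:164769809-164769928, plus strand): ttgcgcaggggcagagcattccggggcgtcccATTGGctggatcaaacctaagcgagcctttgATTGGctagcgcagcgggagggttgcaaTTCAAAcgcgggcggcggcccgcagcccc
Espl1 (chr15:102296173-102296292, plus strand): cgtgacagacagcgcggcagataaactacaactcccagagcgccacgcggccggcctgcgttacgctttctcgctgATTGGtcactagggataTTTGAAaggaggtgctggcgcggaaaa
Kif11 (chr19:37376262-37376381, plus strand): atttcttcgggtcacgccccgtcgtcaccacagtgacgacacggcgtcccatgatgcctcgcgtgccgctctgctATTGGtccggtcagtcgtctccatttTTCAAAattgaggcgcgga
Top2a (chr11:99024190-99024309, minus strand): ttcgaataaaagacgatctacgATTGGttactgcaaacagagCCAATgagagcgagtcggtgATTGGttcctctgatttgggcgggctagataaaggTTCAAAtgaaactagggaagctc

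In Ube2c, Espl1 and Kif11 the CHR letters stood between the start and the last NF-Y box. Cdk1 had CHR letters at -71 and -15 with its last box at -48, and Top2a at -179 and -23 with its last box at -58, so in both 1 match lay on each side of that box. In Cdc20 they began at position -18 from the start, between boxes at -53 and -8. In Ckap2, the gene with the smallest difference, the CHR letters began at -101 and the box at -20. The median log2 ratio was -0.84 both for the 26 genes with a box and for the 8 genes without one, among them Anln, Ndc80, Nuf2 and Nusap1. It was -0.88 for the 12 genes with CHR letters and -0.83 for the other 22. A match is not a shown binding site, and letters past the annotated start were not searched. The difference between these medians was not tested.

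**Figure D3:**
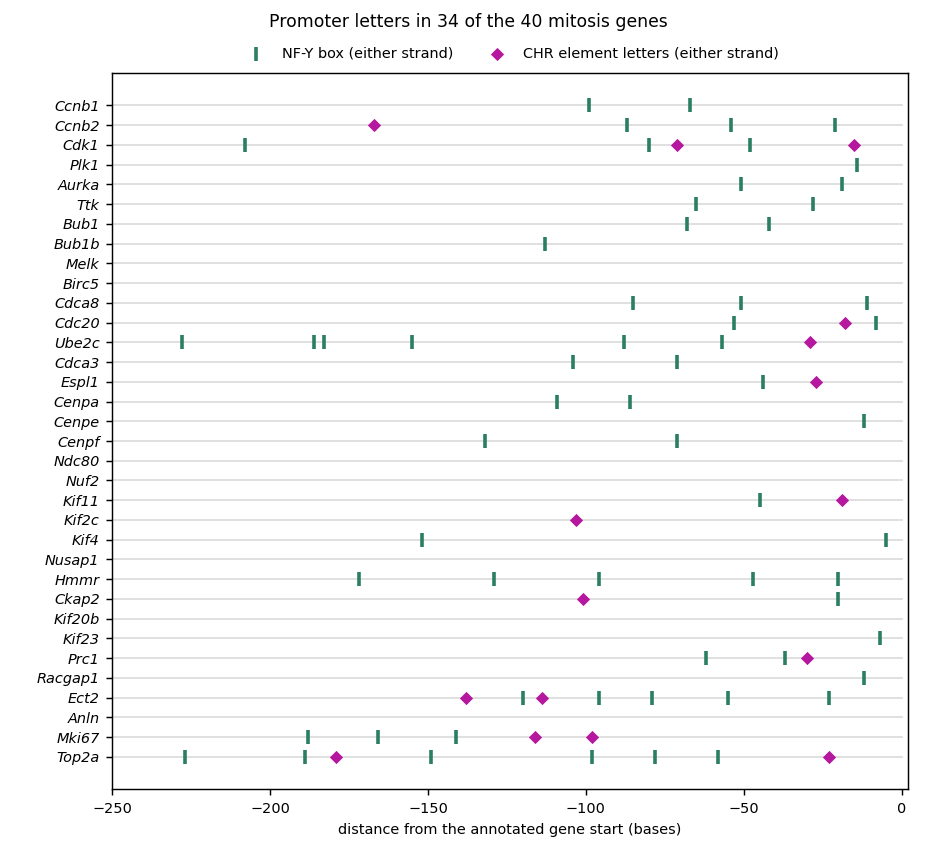
Positions of NF-Y boxes (green bars) and CHR letters (magenta diamonds), on either strand, in the 250 bases before the annotated start of 34 of the 40 genes; the axis gives the distance from the start in bases. Ect2 and Prc1 have 2 annotated starts each, drawn on 1 line, and most boxes lie within 150 bases of the start.

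The genes of entry into mitosis were all lower in KO, at 36.1% to 50.8% of wild type. The counting intervals of Ccnb1 and Cdk1 do not meet, but these genes were picked as the ends of that range. Ccnb1, which encodes cyclin B1, was at 3.68 RPKM in wild type against 1.33 in KO, 36.1% of wild type. Ccnb2, its partner cyclin B2, was at 6.91 and 3.43 RPKM (49.6%). Cdk1, the kinase that both cyclins activate, was at 13.6 and 6.88 RPKM (50.8%). In both libraries Cdk1 RNA thus exceeded that of either cyclin B. Ccna2, cyclin A2, which acts in S phase and up to prometaphase, was at 12.5 and 5.14 RPKM (41.3%). Foxm1, the transcription factor that drives many genes of this list, was itself at 9.57 and 4.45 RPKM (46.5%). All 5 passed 1.5-fold lower, and their log2 ratios ran from -1.13 to -0.84. Ccnb1 and Ccnb2, like Kif4, have an annotated pseudogene with which they could share reads.

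Among the kinases, Plk1, which acts at centrosomes, kinetochores and the midzone, was at 13.4 RPKM in wild type against 6.75 in KO. Aurka, which matures centrosomes and the spindle poles, was at 9.95 and 5.08 RPKM. Both stood near 50% of wild type, at 50.2% and 51.0%. The checkpoint genes were expressed at lower levels. Bub1b, which encodes the BubR1 protein of the mitotic checkpoint complex, was at 3.99 and 1.89 RPKM (47.3%). Bub1 was at 1.31 and 0.600 RPKM (45.8%), and its log2 ratio of -0.53 missed 1.5-fold because 1 is added to both low values. Ttk, the Mps1 kinase that starts checkpoint signalling, was the lowest gene in wild type with 1.08 RPKM and had 0.374 RPKM in KO (34.5%), on an estimated 31.8 units. Its log2 ratio of -0.60 became -0.54 after centring and after quantile normalization, short of 1.5-fold. Melk, a kinase whose RNA follows proliferation, was at 3.12 and 1.40 RPKM.

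All 4 genes of the chromosomal passenger complex were lower in KO, by unequal factors. The complex joins the Aurora B kinase to a scaffold and to subunits that place it at centromeres and then at the midzone. Birc5, which encodes the subunit survivin, was at 4.43 RPKM in wild type against 1.78 in KO (40.2%). Cdca8, which encodes borealin, was at 13.1 and 6.22 RPKM (47.5%). The kinase gene Aurkb was at 7.46 and 4.59 RPKM (61.5%). These 3 genes passed 1.5-fold lower, Aurkb no longer after centring (-0.54) or quantile normalization (-0.53). The scaffold gene Incenp was at 12.5 and 8.41 RPKM, 67.3% of wild type, with a log2 ratio of -0.52. The counting intervals of Birc5 and Incenp in the plot of KO level by gene do not meet, but these genes were picked as the lowest and highest share of the 4.

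The group of the anaphase-promoting complex and separase, in which Cdca3 was also placed, included the 2 highest genes of the list. Ube2c, the ubiquitin-conjugating enzyme of the anaphase-promoting complex, was at 29.0 RPKM in wild type against 16.0 in KO (55.3%). Cdc20, its activator, was at 24.3 and 9.61 RPKM (39.6%). With 1 added it had the lowest log2 ratio of the list, -1.25, whereas by unadjusted RPKM Cenpf was the lowest. The enzyme and the activator, near each other in wild type, thus stood further apart in ratio in KO. Cdca3, linked to the destruction of the Wee1 kinase at mitotic entry, was at 6.69 and 2.73 RPKM (40.7%). Espl1, which encodes separase, the protease that opens cohesin rings, was at 2.80 and 1.21 RPKM (43.4%).

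At the centromere and kinetochore all 5 genes passed 1.5-fold lower, with log2 ratios between -0.92 and -0.74. That is the narrowest range of the roles with more than 2 genes, but only with 1 added. By unadjusted RPKM the log2 ratios ran from -2.06 (Cenpf) to -1.12 (Cenpa). The genes of entry into mitosis ran over a narrower range there, from -1.47 (Ccnb1) to -0.98 (Cdk1). Ndc80 and Nuf2 encode partners in the complex that holds microtubules, and their levels were alike. Ndc80 was at 2.88 RPKM in wild type against 1.18 in KO, and Nuf2 at 2.89 and 1.17 RPKM. Cenpa, the histone H3 variant that marks centromeres, was at 6.93 and 3.20 RPKM (46.1%). Cenpe, a kinesin that aligns chromosomes, was at 1.87 and 0.723 RPKM (38.6%). Cenpf, a large farnesylated protein of the outer kinetochore, was at 1.55 and 0.372 RPKM, and its 23.9% of wild type was the lowest share of the 40 genes. It also has the longest transcript matched, 11130 bases.

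Spindle motors and microtubule-binding proteins held both of the genes that stood closest to their wild-type level. Ckap2, which binds microtubules at spindle poles, was at 7.86 RPKM in wild type against 7.37 in KO, 93.7%. Nusap1, which bundles microtubules near chromatin, was at 1.98 and 1.41 RPKM, 71.2%. Their log2 ratios were -0.08 and -0.31, whereas the other 5 genes of the role lay between -0.97 and -0.73. Tpx2, the activator of Aurora A and a spindle assembly factor, was the highest of these in wild type, at 11.0 RPKM against 5.12 RPKM in KO. The kinesins were close together. Kif11, the motor that pushes the poles apart, was at 2.99 and 1.34 RPKM (45.0%). Kif4, a chromokinesin, was at 2.85 and 1.26 RPKM (44.3%), and Kif2c, which takes microtubules apart at centromeres, at 3.70 and 1.57 RPKM (42.3%). Hmmr, which binds hyaluronan and spindle microtubules, was at 2.70 and 1.24 RPKM (45.8%).

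All 7 genes of the midzone and of cytokinesis passed 1.5-fold lower, though Kif23 did not after centring (-0.57) or quantile normalization (-0.55), nor Kif20b after the latter (-0.58). Anln, which encodes anillin, the scaffold of the contractile ring, was at 7.64 RPKM in wild type against 2.85 in KO (37.3%). Prc1, which bundles the antiparallel microtubules of the midzone, was at 11.9 and 4.96 RPKM (41.6%). Centralspindlin joins the kinesin of Kif23 to the GTPase-activating protein of Racgap1. Kif23 was at 3.11 and 1.66 RPKM (53.2%), and Racgap1 at 9.33 and 4.81 RPKM (51.6%), so both partners stood at a similar share. Ect2, the exchange factor that centralspindlin recruits to activate RhoA, was at 2.49 and 0.890 RPKM (35.7%). Kif20a, the midzone kinesin that brings Aurora B to the midzone, was at 10.4 and 5.70 RPKM (55.1%). Its paralog Kif20b was at 1.27 and 0.447 RPKM (35.1%).

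The mitotic chromosome proteins were both past 2-fold lower, Top2a narrowly, at -1.05, and not after centring or quantile normalization, where it stood at -0.995 and -0.998. Mki67, whose product Ki-67 coats mitotic chromosomes and serves as the standard proliferation marker, was at 7.0 RPKM in wild type against 2.71 in KO (38.7%). Top2a, the topoisomerase that untangles sister chromatids, was at 10.8 and 4.67 RPKM (43.4%).

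Across the 40 genes the unadjusted KO to wild-type ratio was lower for genes at lower levels (Spearman rho of 0.49 with the mean RPKM) and weakly lower for longer transcripts (rho of -0.31), against rhos of 0.16 and -0.08 over the entries with a mean of at least 1 RPKM. Both are descriptions across genes that share the same libraries. The 20 genes with transcripts of 967 to 3236 bases had a median of 45.5% of wild type, and the 20 with transcripts of 3334 to 11130 bases had 44.6%. Over the entries with a mean of at least 1 RPKM the medians were 98.3% for the 2769 shortest transcripts and 93.9% for the 2769 longest.

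The wider cell cycle genes were read through further lists. Of the entries with a mean of at least 1 RPKM, 60.8% were below 0 and 4.77% passed 1.5-fold lower, the shares to set beside each count. Of 40 other mitosis genes 39 were in the tables, 38 of them lower in KO and 24 past 1.5-fold lower, with a median log2 ratio of -0.64. Smc4, a core subunit of condensin, was at 8.68 RPKM in wild type against 3.51 in KO, and Cep55, which recruits the abscission machinery, at 2.41 and 0.816 RPKM. Gtse1, a microtubule-binding protein linked to p53, was at 19.5 and 16.8 RPKM. Pttg1, which encodes securin, the inhibitor of separase, was the one gene of this list that was higher in KO, at 8.93 and 11.2 RPKM, while Espl1, the gene of its target, was lower.

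All 29 DNA replication genes were lower in KO and 13 passed 1.5-fold, with a median log2 ratio of -0.56, nearer to 0 than the -0.84 of the 40 mitosis genes. Tk1, thymidine kinase, was at 12.2 RPKM in wild type against 5.33 in KO, and Ccne2, cyclin E2, at 2.74 and 0.843 RPKM. Tyms, thymidylate synthase, was at 5.32 and 4.82 RPKM, and Pcna, the sliding clamp, at 59.96 and 51.2 RPKM. The difference between the medians of the lists was not tested.

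Of 16 cell cycle transcription factors and MuvB-linked genes, 15 were lower in KO and 2 passed 1.5-fold, with a median log2 ratio of -0.26. These 2 were Mybl2, which encodes B-Myb, at 3.41 and 1.68 RPKM, and E2f7, a repressive E2F, at 3.16 and 1.52 RPKM. E2f4, a subunit of the DREAM complex, was at 36.0 and 35.9 RPKM, and Lin37, a MuvB subunit, at 15.8 and 17.1 RPKM. Of 13 CDK inhibitors and G1 cyclins with their kinases, 8 were lower and 5 higher, with a median log2 ratio of -0.04. That count is near the 60.8% lower among entries with a mean of at least 1 RPKM. Cdkn1a, which encodes the p53-induced inhibitor p21, was at 391 RPKM in wild type against 609 in KO, a log2 ratio of 0.64 and the one gene of this list past 1.5-fold higher. Cdkn1c, which encodes p57, was at 4.08 and 5.46 RPKM. Past 1.5-fold lower were Cdkn2a, the gene of p16 and p19Arf, at 51.2 and 32.1 RPKM, and Ccnd1, cyclin D1, at 91.6 and 57.8 RPKM.

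Of 14 microtubule genes used outside mitosis 13 were in the tables, 9 lower and 4 higher in KO, and their median log2 ratio was -0.15. Among entries with a mean of at least 1 RPKM a similar share, 60.8%, was lower. Stmn1, which encodes the tubulin-binding stathmin and is also linked to proliferation, was the one past 1.5-fold lower, at 7.63 and 4.51 RPKM. Kif5b, a transport kinesin, was at 30.04 and 20.2 RPKM, while Tubb6 was at 332 and 371 RPKM and Tubb2b at 69.3 and 72.0 RPKM.

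**Figure D4:**
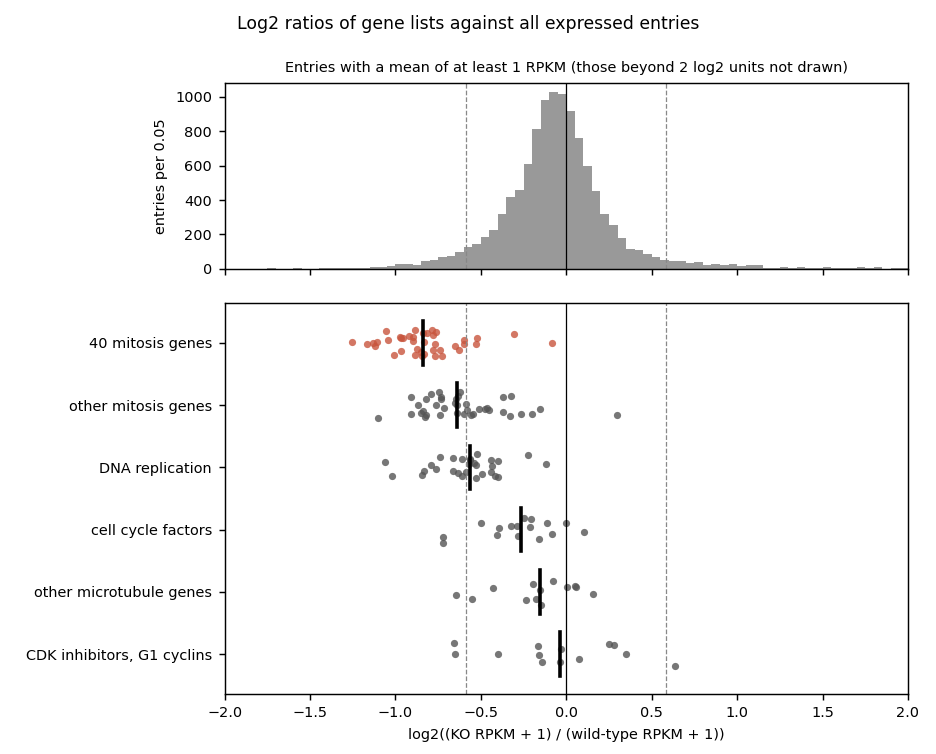
Log2 ratio of KO to wild-type RPKM after 1 is added to each: above, the number of entries per bin of 0.05 among the 11211 with a mean of at least 1 RPKM; below, each gene of 6 lists as a point with the list's median as a black bar. Dashed lines mark 1.5-fold, and the 40 mitosis genes have the median furthest to the left, -0.84; entries beyond 2 log2 units are not drawn.

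In the VCaP libraries, made from RNA depleted of ribosomal RNA rather than poly-A RNA, 39 human counterparts were found by symbol, of which 22 were lower and 17 higher in VCaP ERα than in VCaP, with a median log2 ratio of -0.27. Of the 12344 entries with a mean of at least 1 RPKM there, 68.8% were lower, and their median was -0.61.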

How the data were processed

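RPKM values for 4 libraries, 1 per group, were computed and deposited by the authors, with no scaling between libraries stated. The submitters' processing notes name CASAVA 1.8, mm10 and hg18; the aligner and the way shared reads were counted are not given in the sources used here. The MEF entries carry RefSeq identifiers and mm10 coordinates, whose starts were changed to count from 1. The columns were used as deposited, and no symbol stood on more than 1 entry.

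Log2 ratios used a pseudocount of 1 RPKM, every entry was kept, and genes were counted past 1.5-fold and 2-fold. No test was made. Members and lists were chosen with earlier results of these data known, interferon genes included. Named genes were all 40 members and, in each other list, up to 4 genes, those with the 2 highest and the 2 lowest log2 ratios among genes with a mean of at least 1 RPKM, some of which lie near 0. Markers were given by list, and those named were chosen after their values were seen. Transcript lengths came from GENCODE M21 (the longest transcript per entry). Depth is the commonest low value of RPKM times length: 43.0% of 1591 low values in wild type and 47.1% of 1638 in KO lay within 0.05 of a whole or midway step, against 10% if evenly spread. VCaP values were matched through the symbols in the MEF files. Alternatives were a pseudocount of 0.1, a filter on the mean, centring, quantile normalization and summing entries per symbol. Scripts were tested on simulated data. Tools were Python 3.11.15 with pandas 2.3.3, numpy 2.4.6 and, for plots, matplotlib 3.10.9.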

Additional observations from a re-analysis of the deposited data

How the results depend on the processing

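With 1 library per genotype no replicate could be left out, and no spread between cultures is known. All 40 mitosis genes stayed below 0 with a pseudocount of 0.1, with centring on the median of 10888 entries (-0.059) and with quantile normalization, as did the 36 that passed a mean of at least 1 RPKM. Past 1.5-fold lower, centring left 33 (without Aurkb, Kif23 and Ttk) and quantile normalization 32 (also without Kif20b), in place of 36. The number past 2-fold lower was 28 with the pseudocount of 0.1, and 5 both after centring and after quantile normalization (without Ccnb1, Cdca3 and Top2a), in place of 8. The median of the interferon-response list was 3.58 with the pseudocount of 0.1. Summing entries per symbol changed nothing, as each symbol has 1 entry. Over all entries the pseudocount of 0.1 put 1654 past 1.5-fold lower and 540 past 2-fold, in place of 593 and 78. With it Ttk stood at -1.32, Cenpf at -1.81 and Kif20b at -1.33. Searching only 150 bases before the start left 26 genes with an NF-Y box (76.5%). That compares with 27.7% of all genes with a promoter and 32.1% of those with a mean of at least 1 RPKM. CHR letters were left in 11 genes (32.4%), against 10.5% and 6.3%. The largest counting errors of the unadjusted log2 ratio were those of Ttk (SE 0.29), Bub1 (SE 0.22) and Kif20b (SE 0.19).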
